A study of Drosophila melanogaster with 21 samples.

Results

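The age by genotype interaction asks, for every gene, whether the effect of losing miR-34 on the fly brain transcriptome differed between young and older animals. It is the log2 ratio of mutant to control at 20d minus the same ratio at 3d, so a positive value means that the mutant stood higher against its control at 20d than at 3d. Of 17612 genes in the count table, 15114 had a count in this experiment and 9961 had enough counts to be tested, and 1850 of these (18.6%) had an interaction by the quasi-likelihood F test of edgeR at a Benjamini-Hochberg adjusted p below 0.05, which is what called means here. The interaction was positive for 826 genes (8.29%) and negative for 1024 (10.3%). The groups were ∆miR-34 mutant brains at 3d, control brains (line 5905) at 3d, ∆miR-34 mutant brains at 20d and control brains at 20d, all from males in a w1118 background, with 3 biological replicates each. Each replicate was a pool of brains, and 12 of the 21 libraries of the series belonged to these groups (set 1). The mutation is part of the genotype of the whole animal and is not tied to a cell type or driver. Control brains at 20d and at 3d from a second, separately run experiment (set 2) were used beside these as a measure of age that shares no library with the interaction.

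MicroRNAs are short RNAs that base-pair with messenger RNAs and lower their stability or translation. Fly miR-34 is made mainly in the adult nervous system, its level rises with age, and flies without it live shorter lives with early degeneration of the brain. This design measures gene by gene how the effect of losing miR-34 differed between the ages. Whether the rise of miR-34 with age had a part in that difference was not tested.

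The libraries of set 1 held 17932132 to 23109013 counts. Values per library are given as CPM, which are counts scaled to a common library size after TMM normalisation. CPM follow transcript length, so levels are compared here between libraries of one gene and not between genes. The host transcript lncRNA:CR43459 (3R, 10093761 to 10101356 in build BDGP6.54), whose annotated span holds mir-34, had 1087, 976 and 1078 CPM in 3d mutants, against 10.3, 9.42 and 8.63 CPM in 3d controls. At 20d it had 759, 903 and 843 CPM in mutants, against 18, 15.6 and 19.1 CPM in controls. All 6 mutant libraries therefore stood far above all 6 control libraries, so the labels sort the libraries into 2 kinds at this locus. The mature microRNA is not read by poly(A)-selected libraries, and its loss was not measured here. The share of counts from the mitochondrial genome was 11.5% to 12.3% in 3d mutants, 12.1% to 14.4% in 3d controls, 7.40% to 7.60% in 20d mutants, with 7.27% to 9.39% in 20d controls. All 10 neuron markers and all 9 glia markers matched in the table were expressed above the low-count filter. Photoreceptor genes held 2.78% to 5.97% of the counts in set 1, so RNA of the eye was present beside that of the brain. In these bulk samples, fewer cells of a type and less RNA per cell cannot be told apart.

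The 1850 genes were split by whether the mutant differed from its control at each age. The effect appeared for 705 genes, which were called at 20d and not at 3d, in 301 cases with a positive and in 404 with a negative interaction. It vanished for 607 genes, called at 3d and not at 20d (270 positive and 337 negative). It reversed for 251 genes, called at both ages in opposite directions, 120 of them lower in the mutant at 3d and higher at 20d, and 131 the other way round. A further 99 genes were called at both ages in one direction with a larger change at 20d, 79 with a smaller change at 20d, and 109 at neither age. The comparisons at single ages called 31.4% of the genes at 3d and 32.1% at 20d. They called 1640 genes higher (16.5%) and 1490 lower (15.0%) in the mutant at 3d, and 1657 higher (16.6%) and 1537 lower (15.4%) at 20d, so the counts at the 2 ages were close. The median size of a called interaction was 0.50 on the log2 scale, and 297 genes had an interaction of at least 2-fold. At the threshold, Cisd2 was just inside (log2 interaction −0.26, adjusted p = 0.04997, edgeR) and Nepl20 just outside (1.18, adjusted p = 0.05001, edgeR). Since a gene missed at one age was not shown to be unchanged there, the classes sort calls and not effects. With a change of at least 1.5-fold at the called age and under 1.2-fold at the other, 111 genes appeared and 103 vanished.

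**Figure D1:**
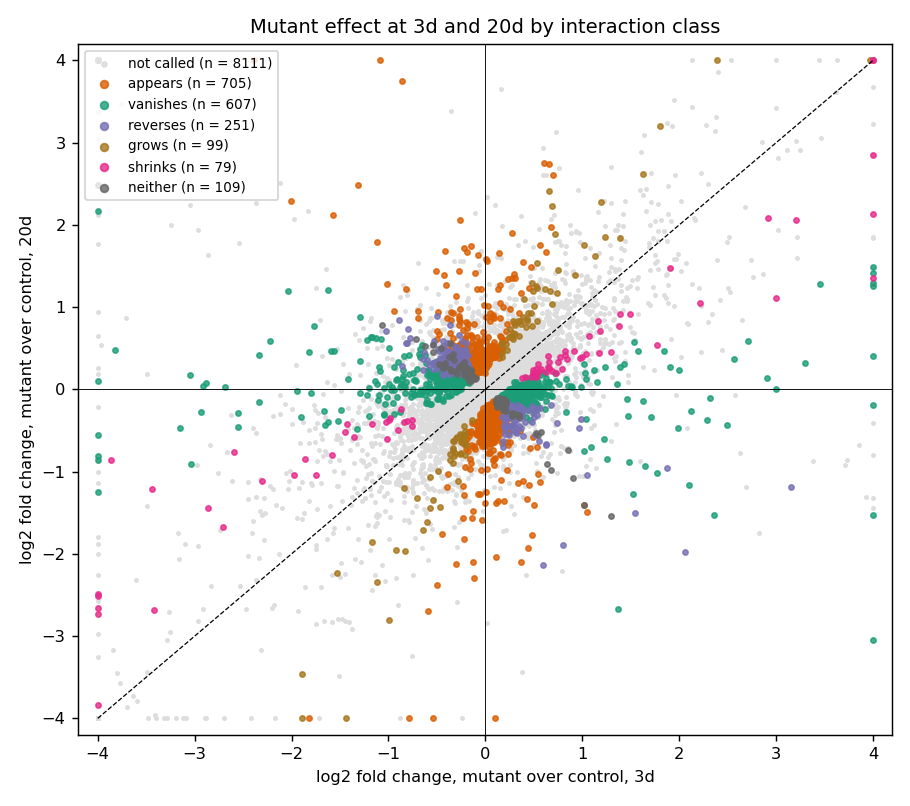
Log2 fold change of mutant over control at 3d (x axis) and at 20d (y axis), 1 point per gene tested, coloured by interaction class, with the dashed line where both are equal and 121 genes beyond ±4 drawn at the edge. The 251 genes that reversed lie in the upper left and lower right quadrants, mostly near the origin. The 705 that appeared and 607 that vanished lie along the vertical and horizontal axes.

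Of the 1850 interaction genes, 1130 (61.1%) were called with age in mutants and not in set 1 controls, against 29.6% of all genes tested. Between 20d and 3d, 46.0% of the genes tested were called in mutants, 24.6% in set 1 controls and 39.2% in set 2 controls. Of the 826 genes with a positive interaction, 700 were called higher at 20d than at 3d in mutants (84.7%, against 22.8% of all genes tested) and 7 lower. In set 1 controls, 91 of them were higher at 20d (11%, against 11.3%) and 147 lower (17.8%, against 13.3%). Of the 1024 with a negative interaction, 842 were called lower at 20d in mutants (82.2%, against 23.2%) and 4 higher. In set 1 controls, 187 of them were lower at 20d (18.3%, against 13.3%) and 219 higher (21.4%, against 11.3%). These counts share libraries with the interaction, which fixes part of their direction. The median log2 change with age of the positive genes was 0.55 in mutants and −0.03 in set 1 controls, and that of the negative genes was −0.44 in mutants and 0.04 in set 1 controls.

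Control brains of set 2, which the interaction did not use, moved with age in the direction of the mutants. Of 825 genes with a positive interaction that were tested in set 2, 423 were called higher at 20d than at 3d (51.3%, against 19.3% of all genes tested in set 2) and 48 lower. Of 1022 with a negative interaction, 576 were called lower (56.4%, against 19.9%) and 35 higher. Among the genes that reversed, 89 of 120 positive ones were higher and 98 of 131 negative ones were lower at 20d in set 2. Their median log2 change with age in set 2 was 0.42 for the positive and −0.35 for the negative genes, against 0.02 and 0.00 in the controls of set 1 and 0.72 and −0.55 in the mutants. Among the genes whose effect grew with age, 9 of 52 positive ones were higher and 15 lower in set 2, and 13 of 47 negative ones were lower and 7 higher. The 2 sets were fitted apart, so the difference between their controls was not tested, nor was its part in the interaction.

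**Figure D2:**
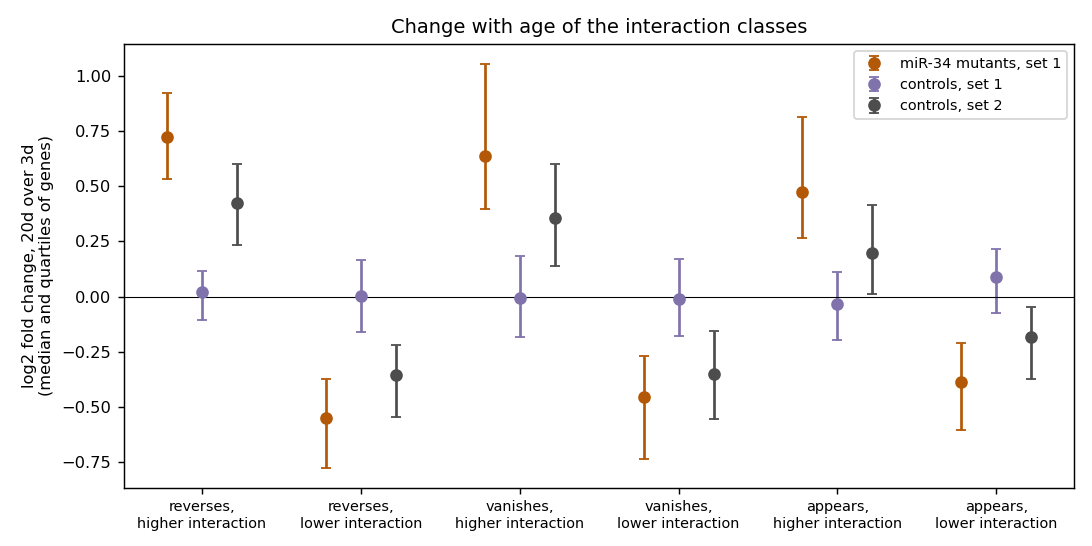
Median log2 fold change of 20d over 3d (y axis, bars from the lower to the upper quartile of genes) for genes that reversed, vanished or appeared, split by the sign of the interaction, in miR-34 mutants and controls of set 1 and in controls of set 2. For reversing genes with a positive interaction the medians were 0.72, 0.02 and 0.42.

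Cytoplasmic ribosomal protein genes had a positive interaction in nearly every member. They encode the protein subunits of the ribosome, and cells usually adjust them together. Of 84 tested, 82 had a positive interaction and 0 a negative one, against 8.29% and 10.3% of all genes tested. Their median interaction was 0.69 on the log2 scale, against 0.02 over all genes. At 3d, 66 were lower and 0 higher in the mutant (median log2 change −0.34), and at 20d, 67 were higher and 0 lower (median 0.36). The effect reversed for 51 of them, appeared for 16 and vanished for 15. RpL15 (log2 interaction 0.14 ± 0.11 SE, adjusted p = 0.40, edgeR) and RpS5b, a low-expressed paralog of RpS5a (−0.33 ± 0.47, adjusted p = 0.67, edgeR), were the members not called.

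RpL32, a gene often used as a reference in quantitative PCR, had the largest interaction of the list. It had 275, 270.5 and 284 CPM in 3d mutants, against 481, 411 and 402 CPM in 3d controls. At 20d it had 552, 561 and 564 CPM in mutants, against 398, 485 and 418 CPM in controls. The groups overlapped at neither age and stood in opposite order, with log2 changes of −0.64 ± 0.08 (SE) at 3d and 0.36 ± 0.08 at 20d (interaction 1.01 ± 0.11, adjusted p = 0.00016, edgeR). RpLP0, of the ribosomal stalk, had 556, 564 and 611 CPM in 3d mutants, against 779, 709 and 679 CPM in 3d controls, and 878, 939 and 948 CPM in 20d mutants, against 709, 791 and 736 CPM in 20d controls (interaction 0.63 ± 0.10 SE, adjusted p = 0.00085, edgeR). RpL3, a protein of the large subunit, vanished, with 686, 694 and 741 CPM in 3d mutants, against 1027, 1025 and 959.7 CPM in 3d controls. At 20d its libraries overlapped, and the log2 change was 0.02 ± 0.06 (SE), against −0.51 ± 0.06 at 3d. RpS14a and RpS14b, near-identical copies whose counts could be split between them, both vanished, with interactions of 0.46 and 0.51.

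Summed over the list, ribosomal protein genes took 3.38% ± 0.12 (SD, n = 3) of all counts in 3d mutants, against 4.45% ± 0.31 in 3d controls, and 5.94% ± 0.040 in 20d mutants, against 4.80% ± 0.32 in 20d controls. The groups did not overlap at either age, since the 3d mutants lay between 3.27% and 3.51% and the 3d controls between 4.22% and 4.80%. At 20d the mutants lay between 5.91% and 5.99% and the controls between 4.55% and 5.15%. With age, 83 members rose in mutants, and 3 rose and 6 fell in set 1 controls (medians 0.69 and 0.00). In set 2 controls, 66 of 85 rose and 0 fell with age (median 0.40), with shares of 6.57% to 7.65% at 20d and 4.69% to 5.23% at 3d. The summed shares at 20d and at 3d lay apart in mutants and in set 2 controls and overlapped in set 1 controls.

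**Figure D3:**
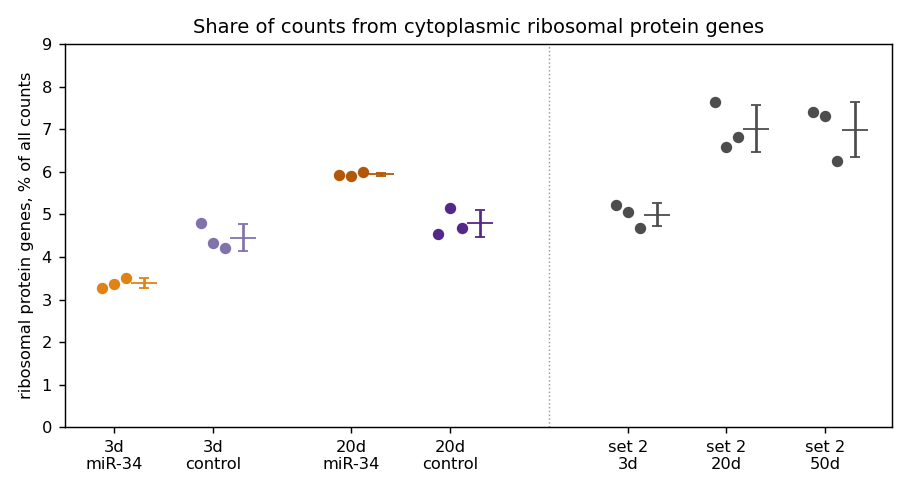
Share of all counts taken by cytoplasmic ribosomal protein genes (y axis, %) in each library, with the mean and SD of 3 libraries beside the points, for set 1 (left) and for set 2 controls at 3d, 20d and 50d (right). The 3d mutants sit at 3.27% to 3.51%, below their controls, and the 20d mutants at 5.91% to 5.99%, above theirs.

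The translation machinery outside the ribosome moved the same way in part. Of 43 initiation and elongation factors tested, 21 had a positive and 1 a negative interaction (median 0.24). These shares of 48.8% and 2.33% stood against 8.29% and 10.3% of all genes tested. At 3d 5 were higher and 12 lower in the mutant, and at 20d 23 were higher and 1 lower. The negative member was eIF4EHP, a cap-binding protein that represses translation (interaction −0.40). The translocation factor eEF2 had 2078, 2020 and 2283 CPM in 3d mutants, against 2092, 2041 and 2044 CPM in 3d controls, and 2253, 2418 and 2423 CPM in 20d mutants, against 1631, 1799 and 1695 CPM in 20d controls. Its effect appeared, with log2 changes of 0.05 ± 0.06 (SE) at 3d and 0.47 ± 0.06 at 20d (interaction adjusted p = 0.0065, edgeR). The helicase eIF4A vanished, with a log2 change of −0.26 ± 0.06 at 3d and one of 0.15 ± 0.06 at 20d that was not called (adjusted p = 0.099, edgeR). Among the elongation factors that bring transfer RNA to the ribosome, eEF1alpha1 appeared (0.41 ± 0.11 at 20d) and its paralog eEF1alpha2 had an interaction of 0.05 ± 0.08 (adjusted p = 0.74, edgeR). Mitochondrial ribosomal proteins had 5 positive and 0 negative calls of 72 tested (mRpS16, mRpS25, mRpS26, mRpS28 and mRpL43), a positive share of 6.94%, below the 8.29% of all genes tested.

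Genes of synapses and neurons had interactions in the opposite direction. Over all genes tested, 10.3% were negative and 8.29% positive in the interaction (median 0.02). In the mutant, 16.5% of them were higher and 15.0% lower at 3d, and 16.6% and 15.4% at 20d. Of 10 neuron markers, 8 had a negative interaction and 0 a positive one (median −0.44), 9 were higher in the mutant at 3d, and 2 were higher and 0 lower at 20d. Of 14 genes of synaptic vesicle release and recycling, 12 had a negative and 0 a positive interaction (median −0.38), with 11 higher and 1 lower in the mutant at 3d and 3 higher and 3 lower at 20d. These lists share Syt1, nSyb and brp. Syt1 (synaptotagmin, the calcium sensor of vesicle release) had 2689, 2560 and 2614 CPM in 3d mutants, against 1694, 1878 and 1886 CPM in 3d controls. At 20d the libraries overlapped, with 1539, 1591 and 1502 CPM in mutants, against 1669, 1512 and 1698 CPM in controls. The log2 changes were 0.53 ± 0.07 (SE) at 3d and −0.07 ± 0.06 at 20d (interaction −0.60 ± 0.09, adjusted p = 0.00091, edgeR). The sodium channel para vanished in the same way (0.50 ± 0.09 at 3d and −0.05 ± 0.09 at 20d), and the active zone scaffold brp shrank (0.62 ± 0.08 and 0.22 ± 0.08). The pan-neuronal RNA-binding protein elav did not pass (interaction −0.34 ± 0.12, adjusted p = 0.073, edgeR).

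Neuron markers summed to 0.99% to 1.07% of counts in 3d mutants, against 0.72% to 0.79% in 3d controls, and to 0.74% to 0.81% in 20d mutants, against 0.70% to 0.84% in 20d controls. The 3d mutants thus stood apart from the other 9 libraries, which overlapped. With age, 10 of 10 markers fell in mutants and 1 in set 1 controls, and 10 of 10 fell in set 2 controls, where they summed to 0.56% to 0.64% at 20d and 0.79% to 0.86% at 3d.

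Nicotinic acetylcholine receptors carry most fast excitation in the fly brain. Of 10 subunit genes, 8 had a negative and 0 a positive interaction (median −0.47), against 10.3% and 8.29% of all genes tested. In the mutant 7 were higher at 3d (against 16.5%), and 5 were lower and 1 higher at 20d (against 15.4% and 16.6%). nAChRalpha7 had 555, 566 and 521 CPM in 3d mutants, against 449, 469 and 464 CPM in 3d controls, and 335, 328 and 273 CPM in 20d mutants, against 485, 377 and 453 CPM in 20d controls. Its interaction was −0.74 ± 0.13 (SE), with a called decrease at 20d (−0.49 ± 0.09, adjusted p = 0.00096, edgeR) and a difference at 3d that missed the threshold (0.25 ± 0.09, adjusted p = 0.051, edgeR). nAChRalpha3 (−0.18 ± 0.11) and nAChRbeta3 (−0.03 ± 0.23) were not called. With age, 7 of the 10 fell in mutants, 0 in set 1 controls and 7 in set 2 controls.

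Glial genes did not move as a block. Of 9 tested, 4 had a negative and 2 a positive interaction, against 10.3% and 8.29% of all genes tested. Gat, the GABA transporter of astrocyte-like glia, reversed, with 869, 826 and 867 CPM in 3d mutants, against 564, 534 and 633 CPM in 3d controls, and 326, 346 and 352 CPM in 20d mutants, against 376, 418 and 401 CPM in 20d controls (interaction −0.79 ± 0.09 SE, adjusted p = 0.00024, edgeR). Gs2, the glutamine synthetase that detoxifies glutamate, reversed with smaller changes (0.18 ± 0.06 at 3d and −0.18 ± 0.06 at 20d), and the glutamate transporter Eaat1 vanished. The astrocyte marker alrm was lower in the mutant at both ages and further so at 20d (265, 252 and 267 CPM in 3d mutants, against 382, 325 and 382 CPM in 3d controls, and 116, 109 and 109.7 CPM in 20d mutants, against 298, 317 and 285 CPM in 20d controls). The positive members were repo, the transcription factor of glial identity (0.30 ± 0.06 at 20d), and nrv2, a sodium pump subunit that was higher in the mutant at both ages. Over the list, glia markers summed to 0.72% to 0.73% of counts in 3d mutants, against 0.55% to 0.65% in 3d controls, and to 0.48% to 0.49% in 20d mutants, against 0.46% to 0.48% in 20d controls.

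**Figure D4:**
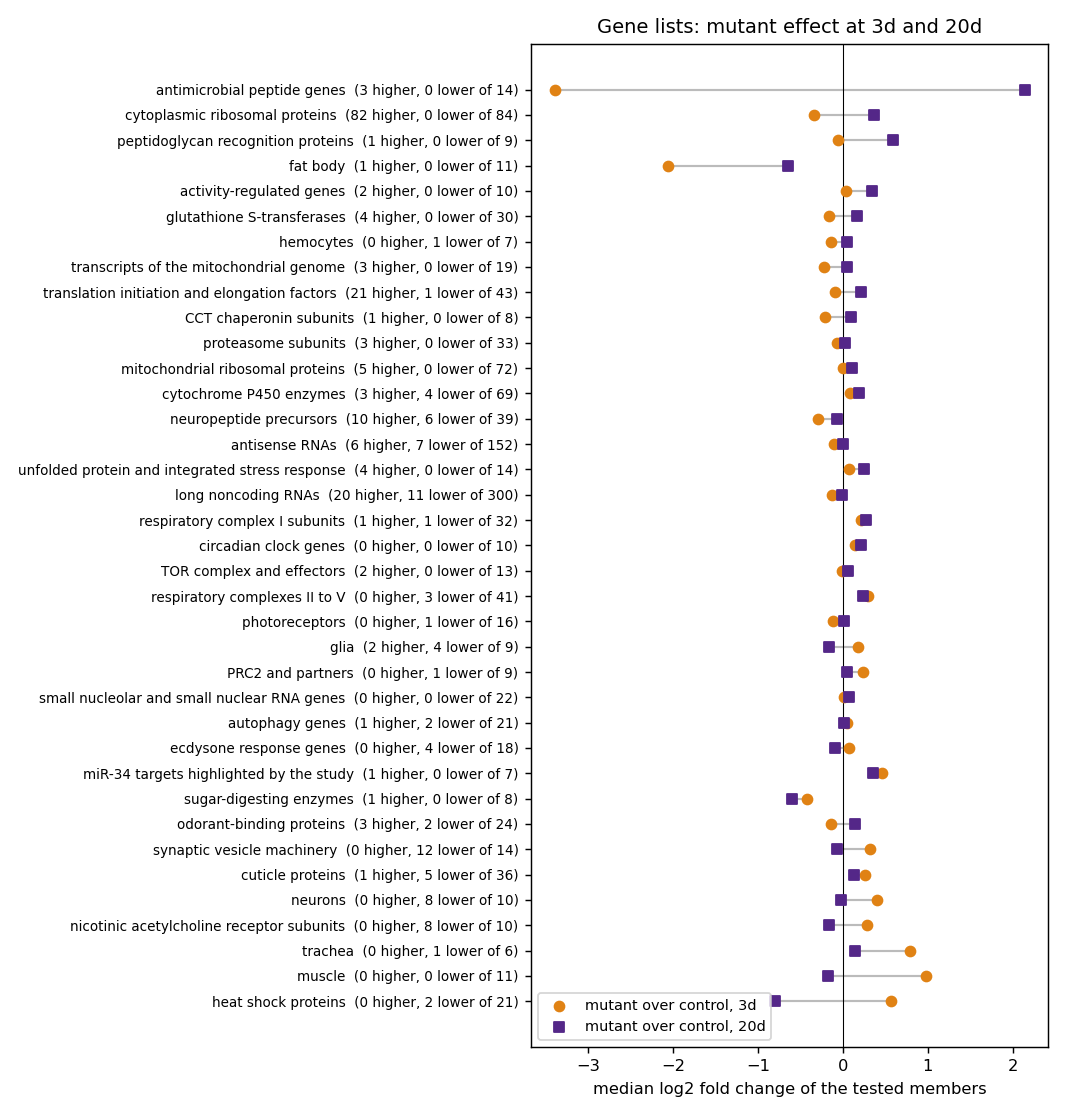
Median log2 fold change of mutant over control (x axis) at 3d (circles) and at 20d (squares) over the tested members of each gene list, ordered by median interaction, with the number of members called positive and negative in the interaction after each name. Ribosomal proteins cross from −0.34 to 0.36, and the neuron, synaptic vesicle and nicotinic receptor lists move from above 0 to near or below it.

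The interaction was correlated with transcript length. Across the 9934 genes with an annotated length, the interaction had a Spearman correlation of −0.36 with the median transcript length. The points are genes of the same 12 libraries and are not independent. The fifth of genes with the shortest transcripts (up to 1049 bases) had a median interaction of 0.21, with 15.4% called positive and 3.07% negative. The fifth with the longest (from 3452 bases) had a median of −0.19, with 2.32% positive and 25.5% negative. Ribosomal protein transcripts are short (288 to 1512 bases, median 708.5), and the 3498 other genes in that range had a median interaction of 0.17, with 11.8% positive and 3.15% negative. The trend differed between libraries too. The Spearman correlation between a library's deviation from the gene means and length was 0.0325 to 0.147 in 3d mutants, against −0.352 to −0.105 in 3d controls, and −0.0861 to −0.0537 in 20d mutants, against −0.0617 to 0.249 in 20d controls.

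When the length trend of every library was removed, an alternative chosen after the data were seen, 1485 genes were called, of which 1179 were also called without it. Ribosomal proteins then had 79 positive and 0 negative calls (median 0.48), with 57 lower at 3d and 66 higher at 20d, and translation factors 18 positive and 1 negative. Neuron markers had 6 negative and 0 positive calls, vesicle genes 8 and 0, and nicotinic receptor subunits 7 and 0. Respiratory chain genes depended on it. Complex I had 1 positive (ND-MLRQ) and 1 negative call (ND-75) of 32 without the removal and 14 negative calls with it. Complexes II to V had 3 negative calls of 41 (blw, ATPsynD and Cyt-c-p) without it and 22 with it. Mitochondrial ribosomal proteins turned to 0 positive and 3 negative. Autophagy genes had 1 positive and 1 negative call of 21 with it, against 1 and 2 without it, and the single calls among photoreceptor (eys) and hemocyte markers (Pxn) were lost.

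Single genes are named below by the size of their interaction within a class, among genes that averaged 3 or more in log2 CPM. The reversing genes with the largest positive interactions were Gadd45, Bbd, Dsk and Tsp42Ed. Gadd45, a stress-response regulator (2R, 7249161 to 7250655 in BDGP6.54), had 5.65, 5.53 and 7.31 CPM in 3d mutants, against 14, 13.1 and 10.6 CPM in 3d controls. At 20d it had 27.3, 32.6 and 26.2 CPM in mutants, against 16.5, 19.7 and 16.4 CPM in controls. Every mutant library lay below every control library at 3d and above at 20d (log2 changes −1.03 ± 0.14 and 0.71 ± 0.13 SE, interaction 1.74 ± 0.19, adjusted p = 0.00015, edgeR). Dsk, the precursor of the satiety peptide drosulfakinin (3R, 4189692 to 4190260), had 61.6, 52.5 and 61.4 CPM in 3d mutants, against 124, 89.3 and 93.1 CPM in 3d controls, and 233, 225 and 187 CPM in 20d mutants, against 132, 126 and 128 CPM in 20d controls (interaction 1.54 ± 0.17, adjusted p = 0.0003, edgeR). Bbd (bombardier, a secreted factor needed for Bomanin peptides to act in immunity) had 109, 128 and 138 CPM in 3d mutants, against 236, 272 and 189.6 CPM in 3d controls, and 568, 632 and 571 CPM in 20d mutants, against 243, 412 and 331 CPM in 20d controls (interaction 1.74 ± 0.27). In both genes the groups kept apart at each age and changed order. The tetraspanin Tsp42Ed reversed with changes of −0.77 ± 0.20 at 3d and 0.63 ± 0.18 at 20d. Gadd45, Dsk and Tsp42Ed rose with age in set 2 controls (1.06, 0.87 and 1.97 on the log2 scale), as did Bbd (1.05).

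Among genes with a negative interaction, retinin, a protein of the corneal lens of the eye (3L, 16331933 to 16332789), had 97.6, 91 and 129.6 CPM in 3d mutants, against 33.4, 36 and 39.4 CPM in 3d controls. At 20d it had 4.23, 3.0 and 5.26 CPM in mutants, against 10.6, 14.9 and 9.64 CPM in controls. The groups overlapped at neither age (log2 changes 1.55 ± 0.21 and −1.51 ± 0.24 SE, interaction −3.05 ± 0.31, adjusted p = 0.00035, edgeR), and the level fell with age in mutants, in set 1 controls and in set 2 controls (−4.68, −1.63 and −2.60). The enzyme se (sepia), of eye pigment synthesis (3L, 8520552 to 8521489), had 44.1, 41.2 and 49.4 CPM in 3d mutants, against 27.7, 34.8 and 24.8 CPM in 3d controls, and 13.5, 15.2 and 17.8 CPM in 20d mutants, against 22.8, 30.9 and 19.7 CPM in 20d controls (interaction −1.29 ± 0.25, adjusted p = 0.0052, edgeR). SLC22A, an organic cation transporter, reversed with 0.99 ± 0.11 at 3d and −0.36 ± 0.11 at 20d, and tyn (trynity), a zona pellucida domain protein of apical matrix, with 0.96 ± 0.14 and −0.47 ± 0.14. The exons of tyn overlap those of RhoGAP1A on the same strand, and those of se and SLC22A overlap genes on the opposite strand, so their counts could include reads of those genes. Of 16 photoreceptor markers tested, 1 was negative (eys) in the interaction (6.25%, against 10.3% of all genes tested). Their summed share overlapped between all 4 groups (3.74% to 4.88% in 3d mutants, 4.34% to 5.97% in 3d controls, 2.78% to 5.77% in 20d mutants, with 3.53% to 5.87% in 20d controls).

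**Figure D5:**
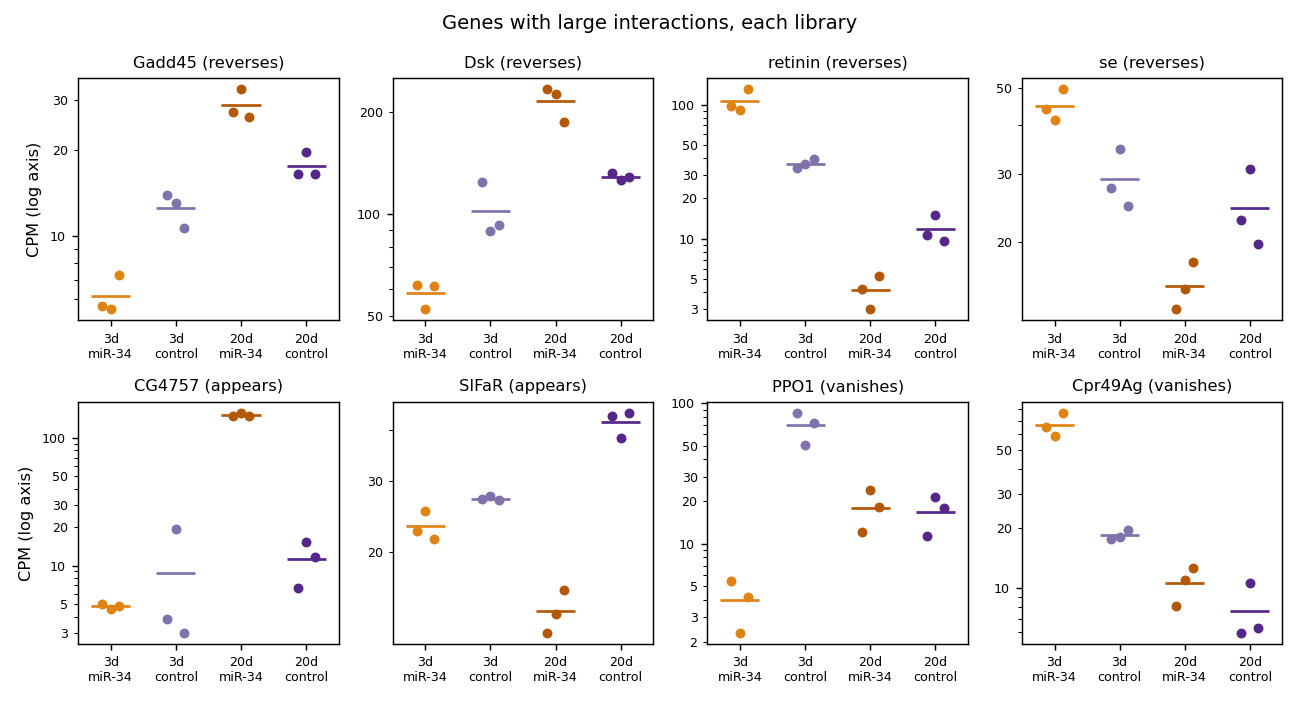
CPM of 8 genes with large interactions in each library (y axis, log scale, a range of its own in each panel), with the group mean as a line, for mutants and controls at 3d and at 20d. Gadd45 and Dsk stand below control at 3d and above it at 20d, retinin and se the other way round, CG4757 and SIFaR part from control at 20d, and PPO1 and Cpr49Ag meet it at 20d.

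Among genes of at least that level whose effect appeared, the largest positive interactions belonged to CG4757, an uncharacterised gene, and to Bomanins, short secreted peptides induced by the Toll immune pathway. CG4757 (3R, 11161207 to 11163498) had 5.05, 4.6 and 4.85 CPM in 3d mutants, against 3.83, 19.4 and 2.99 CPM in 3d controls, and 148, 156 and 149 CPM in 20d mutants, against 6.74, 15.2 and 11.8 CPM in 20d controls. The libraries overlapped at 3d and lay far apart at 20d (log2 change 3.75 ± 0.64 SE, interaction 4.61 ± 0.92, adjusted p = 0.011, edgeR). BomS5 had 4.04, 5.38 and 4.01 CPM in 3d mutants, against 5.55, 7.88 and 4.69 CPM in 3d controls, and 23.7, 26.3 and 18.8 CPM in 20d mutants, against 5.99, 11.1 and 9.29 CPM in 20d controls (interaction 1.82 ± 0.35, adjusted p = 0.0057, edgeR). BomS1 (2.11 ± 0.57) and BomBc3 (1.85 ± 0.44) were also called, and with age in set 2 controls their log2 changes were 0.53 and 0.71 and missed the threshold. The call of BomS1 was held in 10 of 19 alternative fits and that of BomBc3 in 17 of 19.

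The largest negative interactions of this class included a receptor, a peptidase and a chaperone. SIFaR, the receptor of the peptide SIFamide, which modulates feeding, sleep and courtship (3R, 21276664 to 21293998), had 22.5, 25.3 and 21.5 CPM in 3d mutants, against 27, 27.5 and 26.8 CPM in 3d controls. At 20d it had 12.6, 14 and 16 CPM in mutants, against 43.5, 38.4 and 44.2 CPM in controls. The mutants lay below the controls at both ages, with a log2 change of −0.23 ± 0.09 (SE) at 3d, which missed the threshold (adjusted p = 0.076, edgeR), and of −1.57 ± 0.10 at 20d (interaction −1.34 ± 0.13, adjusted p = 0.00013, edgeR). It fell with age in mutants (−0.70) and rose in the controls of set 1 (0.63) and of set 2 (0.63). Its ligand precursor SIFa was higher in the mutant at both ages and more so at 20d (0.92 ± 0.08 and 1.39 ± 0.08). The peptidase Nepl5, of the neprilysin-like family, had 97.1, 94.3 and 110.4 CPM in 3d mutants, against 121, 107 and 125 CPM in 3d controls, and 50.7, 48.5 and 50.9 CPM in 20d mutants, against 136, 111 and 118 CPM in 20d controls (interaction −1.06 ± 0.12). The small heat shock protein Hsp67Bc had 19.8, 18.1 and 21.8 CPM in 3d mutants, against 22.9, 17.4 and 25 CPM in 3d controls, and 4.92, 5.56 and 5.64 CPM in 20d mutants, against 10.3, 15.5 and 19.2 CPM in 20d controls (interaction −1.36 ± 0.29). CG8401, an uncharacterised gene, rose with age in controls of both sets and fell in mutants (interaction −1.25 ± 0.19).

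Genes whose effect vanished included components of blood cells and immunity. PPO1, a prophenoloxidase of crystal cells that makes melanin (2R, 17887220 to 17889973), had 5.42, 2.33 and 4.2 CPM in 3d mutants, against 85.1, 50.6 and 72.7 CPM in 3d controls, and 12.1, 23.9 and 18.2 CPM in 20d mutants, against 11.3, 21.5 and 17.9 CPM in 20d controls. The groups lay apart at 3d (−4.12 ± 0.42 SE) and overlapped at 20d. PPO1 rose with age in mutants (2.17) and fell in set 1 controls (−2.04), with an interaction of 4.21 ± 0.55 (adjusted p = 0.0015, edgeR). PPO2, its paralog of the same cells, shrank in the same manner (−2.60 ± 0.16 at 3d and −0.76 ± 0.15 at 20d). Of 7 other hemocyte markers, 1 was called, negative (Pxn, 14.3%, against 10.3% of all genes tested). Their summed share overlapped between the 4 groups (0.051% to 0.059% in 3d mutants, 0.051% to 0.059% in 3d controls, 0.050% to 0.053% in 20d mutants, with 0.044% to 0.055% in 20d controls).

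PGRP-SB1, a secreted enzyme that recognises bacterial cell wall, had 5.88, 8.38 and 7.49 CPM in 3d mutants, against 28.9, 43.3 and 29.3 CPM in 3d controls, and 80.5, 129.8 and 77.9 CPM in 20d mutants, against 27.9, 67.2 and 96.6 CPM in 20d controls (interaction 2.82 ± 0.63 SE, adjusted p = 0.017, edgeR), and its call was held in 18 of 19 alternative fits. Antimicrobial peptide genes varied strongly between replicates. Of 14 tested, 3 were positive in the interaction (21.4%, against 8.29% of all genes tested), namely AttC, DptB and Drsl4. At 3d 2 were lower and 0 higher in the mutant (median −3.39), and at 20d 2 were higher and 0 lower (median 2.14). AttC, an attacin, had 0.184, 0.103 and 0.18 CPM in 3d mutants, against 3.4, 36.9 and 9.77 CPM in 3d controls, and 138, 548 and 191 CPM in 20d mutants, against 8.8, 95.1 and 91.6 CPM in 20d controls. Its mutants lay below every control library at 3d and above every control library at 20d, where the difference was not called. The fold against its 3d mutants rests on 2 to 4 counts a library, and its call was held in 12 of 18 alternative fits. With age, 11 of the 14 rose in mutants (against 22.8% of all genes tested) and 10 of 17 in set 2 controls (against 19.3%). In set 1 controls 0 of the 14 rose by edgeR and 0 by DESeq2, with 1 at an unadjusted p below 0.05. Fat body is the main source of such peptides. Of 11 of its markers, 4 were lower and 0 higher in the mutant at 3d (median −2.06), and 3 were lower and 1 higher at 20d (median −0.64). Over all genes tested, 15.0% were lower and 16.5% higher at 3d, and 15.4% and 16.6% at 20d. Of the 11 markers, 1 (fit) was positive in the interaction (9.09%, against 8.29%), a call that was lost with the length trend removed. The markers summed to 0.18% to 0.24% of counts in 3d mutants, 0.24% to 0.34% in 3d controls, 0.23% to 0.25% in 20d mutants, with 0.23% to 0.32% in 20d controls. The part of fat body RNA in these values was not tested. The matrix protein atk was also lower at 3d only by the calls, but its call was held in 9 of 19 alternative fits.

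Genes higher in the young mutant and not called at 20d included a neuropeptide-like precursor, cuticle proteins and a muscle protein. Nplp3 (3L, 16318024 to 16318690) had 136, 156 and 115.2 CPM in 3d mutants, against 26.9, 29.98 and 24.6 CPM in 3d controls, and 10.3, 7.0 and 7.91 CPM in 20d mutants, against 7.69, 12.3 and 7.18 CPM in 20d controls (interaction −2.43 ± 0.31 SE, adjusted p = 0.00095, edgeR). The cuticle protein Cpr49Ag had 65.3, 58.2 and 76.4 CPM in 3d mutants, against 17.8, 18 and 19.7 CPM in 3d controls, and 8.12, 11 and 12.7 CPM in 20d mutants, against 5.95, 10.7 and 6.32 CPM in 20d controls (interaction −1.38 ± 0.31). Both fell with age in the controls of both sets and fell further in mutants. Of 36 cuticle genes tested, 5 were negative (13.9%, against 10.3% of all genes tested) and 1 positive (2.78%, against 8.29%). The negative ones were Cpr49Ae, Cpr49Ag, Cpr97Ea, Cpr97Eb and Cpr100A, and the positive one, Cpr47Ef, appeared at 20d (2.06 ± 0.28). Of 6 trachea markers, 4 were higher in the mutant at 3d (against 16.5% of all genes tested) and 0 at 20d (against 16.6%). The count at 20d was by edgeR, with 0 by DESeq2 and 0 at an unadjusted p below 0.05. These markers summed to 0.0052% to 0.0063% of counts in 3d mutants, against 0.0035% to 0.0044% in 3d controls, and 0.0033% to 0.0035% in 20d mutants, against 0.0030% to 0.0036% in 20d controls. Only the chitin deacetylase serp passed the interaction test (−2.66 ± 0.48), a negative share of 16.7%, against 10.3% of all genes tested. Prm, the paramyosin of muscle (−1.30 ± 0.39), and phu, an alkaline phosphatase gene by its synonym (−2.94 ± 0.85), were each held in 8 of 19 alternative fits, and phu still lay above its control in every library at 20d (19.2, 20.1 and 21.5 CPM in mutants, against 2.4, 14.9 and 4.35 CPM in controls). Of 11 muscle markers, edgeR called 0 in the interaction, with 4 negative at an unadjusted p below 0.05, and DESeq2 called 4 negative. The 11 markers included 4 called higher in the mutant at 3d (against 16.5% of all genes tested) and 1 at 20d (against 16.6%). Their summed share was 0.026% to 0.035% in 3d mutants, against 0.015% to 0.020% in 3d controls, and 0.020% to 0.033% in 20d mutants, against 0.016% to 0.029% in 20d controls, and the part of muscle and tracheal RNA in the vanishing genes was not tested.

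Where the mutant differed at both ages in one direction, the gap widened or narrowed. Ance-3, of the angiotensin-converting enzyme family, had 8.23, 8.27 and 8.63 CPM in 3d mutants, against 5.45, 4.36 and 5.83 CPM in 3d controls, and 25.3, 36.6 and 34.4 CPM in 20d mutants, against 4.75, 7.61 and 8.12 CPM in 20d controls (interaction 1.55 ± 0.28 SE, adjusted p = 0.0027, edgeR). The glial amino acid exchanger gb (genderblind) rose with age in mutants and fell in controls of both sets (0.59, −0.42 and −0.68), and the difference between genotypes was 0.53 ± 0.09 at 3d and 1.54 ± 0.09 at 20d. Sgsh, a lysosomal sulfatase, had 3.63, 5.65 and 5.37 CPM in 20d mutants, against 15.1, 17.9 and 14.8 CPM in 20d controls, a log2 change of −1.71 ± 0.15, and one of −0.64 ± 0.15 at 3d. Cyp6a2, a detoxifying cytochrome P450, had log2 changes of −1.12 ± 0.21 at 3d and −2.34 ± 0.22 at 20d, and its interaction call was held in 16 of 19 alternative fits. The digestive amylase Amy-p had log2 changes of −6.18 ± 0.73 at 3d and −2.52 ± 0.48 at 20d, and its interaction call was held in 12 of 18 alternative fits. It did not enter the fit that required 10 counts in every library, so its folds rest in part on few counts. The gap also narrowed for lncRNA:CR43459 and for its neighbour lncRNA:CR45054 (3R, 10083381 to 10090525). Both rose with age in set 1 controls (0.89 and 2.07), while in mutants lncRNA:CR43459 fell (−0.33) and lncRNA:CR45054 was not called (−0.36).

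Neuropeptide precursors, released by small groups of neurons, had 10 positive and 6 negative interactions of 39 tested. These shares of 25.6% and 15.4% stood against 8.29% and 10.3% of all genes tested. Orcokinin vanished (−0.73 ± 0.09 SE at 3d and 0.12 ± 0.09 at 20d), with 53.8, 53.4 and 54.8 CPM in 3d mutants, against 101, 84.8 and 82.6 CPM in 3d controls, and overlapping libraries at 20d. NPF, the fly counterpart of neuropeptide Y, narrowed (−0.81 ± 0.08 and −0.39 ± 0.08). Dh44, a diuretic hormone, and the tachykinin precursor Tk widened downward (interactions −0.43 ± 0.12 and −0.29 ± 0.08), and Nplp1 and ITP appeared as decreases at 20d (−0.45 ± 0.06 and −0.31 ± 0.05). These precursors are mostly short, and with the length trend removed the list had 4 positive and 9 negative calls.

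Of 7 miR-34 targets that the study follows (Lst8, Eip74EF, Su(z)12, Pcl, dlg1, Nrx-IV and hts), 6 were higher in the mutant at 3d and 6 at 20d, and Lst8 passed the interaction test. Lst8, a subunit of both TOR kinase complexes, had 10.3, 9.72 and 11.4 CPM in 3d mutants, against 12.6, 11.2 and 12.4 CPM in 3d controls, and 15.6, 16.8 and 16.1 CPM in 20d mutants, against 12.9, 12.9 and 12.2 CPM in 20d controls. The libraries overlapped at 3d and were apart at 20d (0.36 ± 0.08 SE, interaction 0.56 ± 0.12, adjusted p = 0.0069, edgeR). Its exons overlap those of Gga on the opposite strand. The interaction of Eip74EF, an ecdysone-induced transcription factor, was −0.25 ± 0.09 (adjusted p = 0.081, edgeR), that of the Polycomb subunit gene Su(z)12 was −0.08 ± 0.09, and that of its partner Pcl was 0.07 ± 0.14. Lst8 was picked out by the study in these brains, so its direction is no independent evidence, whereas the others were known as targets from earlier work. In the TOR list, S6k, the kinase of ribosomal protein S6, widened (interaction 0.23 ± 0.07). With Lst8 it made 2 positive genes of 13 (15.4%, against 8.29% of all genes tested), and 0 were negative (against 10.3%). With the length trend removed, 2 were positive and 2 negative.

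PRC2 writes the repressive mark H3K27me3. Of 9 genes of PRC2 and its partners, 0 were positive and 1 member was negative (11.1%, against 10.3% of all genes tested). The member was esc, the subunit that binds the mark, with 16, 16.9 and 16.4 CPM in 3d mutants, against 12.7, 15.1 and 14.2 CPM in 3d controls, and 8.81, 10.1 and 8.74 CPM in 20d mutants, against 18.1, 13.7 and 15.9 CPM in 20d controls (interaction −1.02 ± 0.15 SE, adjusted p = 0.00084, edgeR). Ecdysone response genes had 4 negative (22.2%, against 10.3% of all genes tested) and 0 positive calls of 18. ImpE1 widened (interaction −1.01 ± 0.15), and Hr3 and Eip78C appeared as decreases (−0.47 ± 0.12 and −0.68 ± 0.13). The early regulator br was higher in the mutant at 3d only by the calls, with an interaction of −0.57 ± 0.13. Of 21 autophagy genes, 1 was positive (4.76%, against 8.29% of all genes tested) and 2 were negative (9.52%, against 10.3%). The conjugation factor Atg12 reversed upward (0.62 ± 0.13), although its exons overlap ND-SGDH on the opposite strand. The adaptor ref(2)P, which rose with age in controls of both sets and was not called in mutants, appeared as a decrease (−0.30 ± 0.06 at 20d). Vps15, a regulator of the lipid kinase of autophagy, had an interaction of −0.27 ± 0.08 and was called at neither age.

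Stress and proteostasis lists differed in their share of positive calls, which was 8.29% over all genes tested. Of 14 genes of the unfolded protein and integrated stress response, 4 were positive (28.6%, crc, Calr, ERp60 and Pdi) and 0 negative, and all 4 appeared at 20d, by 0.23 to 0.35 on the log2 scale. With the length trend removed, 2 of the 14 were positive and 1 negative. Proteasome subunits had 3 positive and 0 negative calls of 33 (9.09%, Prosalpha2, Prosalpha3 and Prosbeta2), and 1 positive call with the trend removed. Glutathione S-transferases had 4 positive and 0 negative calls of 30 (13.3%, GstD1, GstD9, GstE6 and GstE11), of which GstD1 reversed (−0.51 ± 0.09 SE and 0.32 ± 0.08). The heat shock list had a median of −1.36 with 0 positive and 2 negative calls of 21, a negative share of 9.52%, near the 10.3% of all genes tested. At 3d edgeR called 0 of the 21 between genotypes, with 7 higher in the mutant at an unadjusted p below 0.05, and DESeq2 called 8 higher. The inducible member Hsp68 had 135, 6.15 and 453 CPM in 3d mutants, against 13.6, 10.2 and 7.59 CPM in 3d controls, and 36.8, 156 and 223 CPM in 20d mutants, against 23.9, 359 and 747 CPM in 20d controls. Its libraries varied strongly and overlapped between genotypes at both ages, and its interaction missed the threshold (−5.69 ± 2.17, adjusted p = 0.11, edgeR). The activity-regulated capsid gene Arc2 appeared, with 2.76, 3.26 and 4.13 CPM in 3d mutants, against 2.86, 4.81 and 2.94 CPM in 3d controls, and 15.7, 19.9 and 19.6 CPM in 20d mutants, against 4.71, 7.3 and 5.74 CPM in 20d controls (interaction 1.71 ± 0.31, adjusted p = 0.0026, edgeR).

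Interaction genes were spread over the genome. The share of tested genes called was 17.2% on 3L, 18.1% on 3R, 18.9% on 2L, 19.1% on X and 19.3% on 2R, and 28 of 98 genes (28.6%) on the small chromosome 4. The arm 3R, which carries mir-34, was within the range of the other large arms. Among noncoding genes, 20 of 300 long noncoding RNAs were positive (6.67%) and 11 negative (3.67%), and 6 (3.95%) and 7 (4.61%) of 152 antisense RNAs, shares below the 8.29% and 10.3% of all genes tested. The strand setting of the counting was not stated, so antisense counts may hold reads of their partners.

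The calls depended on single libraries to a known extent. In all 12 fits that left out 1 library, 1075 of the 1850 genes were called with the same sign (458 positive and 617 negative). Without replicate 1 of the 3d mutants the vanishing class held 378 genes and the reversing class 142, without replicate 2 of the 3d mutants 391 and 161, and without replicate 1 of the 3d controls 345 and 154, while without replicate 3 of the 20d controls the reversing class held 164. Ribosomal proteins had 79 to 82 positive calls in these fits. Neuropeptide precursors had 5 to 10, with 5 or 6 in the 7 fits without replicate 1 or 2 of the 3d mutants, replicate 1 or 2 of the 3d controls, replicate 1 or 2 of the 20d mutants or replicate 3 of the 20d controls. The list of vesicle genes had 6 to 12 negative calls, with 6 without replicate 1 or replicate 2 of the 3d mutants and 7 without replicate 1 of the 3d controls, replicate 3 of the 20d controls or replicate 3 of the 20d mutants.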

How the data were processed

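RNA-seq libraries were prepared with TruSeq chemistry and poly(A) selection from pools of dissected fly brains. Per the labels and the study's methods, the authors mapped reads with HISAT2, counted them per gene with HTSeq and deposited raw counts of 17612 genes. They used DESeq2 for their own tests. The strand setting of the counting is not given in the sources used here, so genes with overlapping exons may share reads. All 12 libraries of set 1 entered one fit of 4 group means in edgeR 4.0.16 (R 4.3.3), with TMM factors, the filterByExpr low-count filter (minimum count 10) and the robust quasi-likelihood F test. The 9 control libraries of set 2 were fitted by themselves. Adjusted p-values are Benjamini-Hochberg values over all genes tested, with a threshold of 0.05, and the SE of a log2 change was taken from its F statistic. Replicates were pools of different flies, so p-values measure the spread between such pools.

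Set 1 held 17932132 to 23109013 counts a library and set 2 held 30890607 to 43713430. Interaction genes were classed by their calls at each age. The text names, for each sign of the interaction, the 4 genes of the appearing, vanishing and reversing classes and the 2 of the growing and shrinking classes that had the largest interaction and averaged 3 or more in log2 CPM, and members of 40 gene lists. The interaction, its members and the lists were chosen with earlier results of these data known. The cuticle list, drawn by symbol, also took in a few Cp genes that encode other proteins, such as Cp190. Symbols without a match, such as Tor, Akt1 and Vps34, were left out. Gene spans and transcript lengths came from Ensembl release 115 (BDGP6.54), whereas the study names a different FlyBase release, and the count table holds no coordinates.

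Alternatives were DESeq2 1.42.0, its size factors in edgeR, mitochondrial transcripts left out, no filter or at least 10 counts in every library, a block for the replicate number, stricter thresholds, each library left out in turn and, added after the data were seen, removal of each library's trend with transcript length. Sequences, seed matches and promoters were not analysed here.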

Additional observations from a re-analysis of the deposited data

Results flagged for a closer look

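The effect of the mutation differed between 20d and 3d for 1850 genes by the test of the difference itself, and the named genes among them are given with their log2 interaction. Where the effect appeared, the values were CG4757 (4.61), BomS1 (2.11), BomBc3 (1.85) and BomS5 (1.82) upward, and Hsp67Bc (−1.36), SIFaR (−1.34), CG8401 (−1.25) and Nepl5 (−1.06) downward. Where it vanished, they were AttC (8.86), PPO1 (4.21), PGRP-SB1 (2.82) and atk (2.13), and phu (−2.94), Nplp3 (−2.43), Cpr49Ag (−1.38) and Prm (−1.30). AttC and phu were not called at 20d, although every mutant library lay above every control library there. Where it reversed, they were Gadd45 (1.74), Bbd (1.74), Dsk (1.54) and Tsp42Ed (1.40), and retinin (−3.05), tyn (−1.43), SLC22A (−1.35) and se (−1.29). The effect grew for Ance-3 (1.55) and gb (1.00), and for Cyp6a2 (−1.22) and Sgsh (−1.07). It shrank for Amy-p (3.66) and PPO2 (1.84), and for lncRNA:CR45054 (−2.43) and lncRNA:CR43459 (−1.22).

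Among these, AttC rests on 2 to 4 counts a library in 3d mutants, and the value of CG4757 rests in part on 1 control library at 3d with 19.4 CPM. Amy-p did not reach 10 counts in every library. With single libraries left out, the interaction of CG4757 lay between 3.24 and 5.03 and that of AttC between 7.54 and 9.34.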

How the results depend on the processing

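The interaction called 1850 genes, 836 at an adjusted p under 0.01 and 729 when the interaction also had to reach 1.5-fold. That fold requirement turned the balance of signs, with 425 positive and 304 negative genes. At an adjusted p under 0.01, the contrasts called 1874 genes between mutants and controls at 3d, 2016 at 20d, 1169 between ages in set 1 controls and 2664 in set 2 controls. With a 1.5-fold change required, the counts were 1084 at 3d, 1155 at 20d, 1824 between ages in mutants, 602 in set 1 controls and 1426 in set 2 controls. At 0.01 the classes held 352 appearing, 290 vanishing, 72 reversing, 30 growing and 26 shrinking genes and 66 called at neither age. With at least 1.5-fold at the called age and under 1.2-fold at the other, 111 appeared and 103 vanished. With the length trend removed, 41 genes were called at neither age and 4 neuropeptide precursors were positive. Leaving out 1 library gave 1548 to 2564 genes between ages in set 1 controls (1548 without replicate 3 of the 20d controls and 1602 without replicate 1 of the 3d controls), and 482 to 824 appearing, 345 to 658 vanishing, 142 to 354 reversing, 55 to 117 growing and 46 to 80 shrinking genes, 48 to 131 called at neither age, 6 to 12 negative vesicle genes and 5 to 10 positive neuropeptide precursors. The interaction itself ranged from 1247 to 2164 genes in these fits. DESeq2 called 1954, and the other normalizations and count filters called 1556 to 1854. The replicate number as a block gave 1893 interaction genes, 1730 of them shared. Same-numbered libraries correlated at −0.27 to 0.30 over 18 pairs (5 over 0.1), so the numbers were not taken to pair the samples. Of the 32 named genes, 23 were called in each alternative that gave a value, 9 lost the call in at least 1, and 0 changed sign. The median interaction over all genes stayed between −0.00096 and 0.03 on the log2 scale. Genes with few counts in some libraries, such as AttC and Amy-p, have folds limited by depth.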

Other observations

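The families below were chosen after the data were seen, from the genes that passed the interaction test, so their counts are descriptions. Over all genes tested, 8.29% were positive and 10.3% negative in the interaction. Cell-surface proteins by which neurons recognise their partners had negative interactions. Of 21 Dpr genes, 12 were negative and 0 positive (median −0.34), and of their binding partners, the DIP genes, 8 of 11 were negative and 0 positive (median −0.55). Of 21 genes of the Beat and Side families, which guide motor axons in the embryo, 16 were negative and 0 positive (median −0.41). With the length trend removed, these lists had 12, 8 and 13 negative calls. The proton pump of vesicles and lysosomes, the vacuolar H+ ATPase, had 6 negative and 0 positive calls of 20, all of them vanishing, and 11 negative calls with the length trend removed.

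Other short lists went the other way. Of 12 Bomanin genes, 4 were positive and 0 negative, and 9 were higher in the mutant at 20d, against 1 higher and 1 lower at 3d. With the length trend removed, 2 Bomanin genes were positive. Of 6 host transcripts of small nucleolar RNAs, 4 were positive and 0 negative (median 0.91), and all 6 were lower in the mutant at 3d. Of 6 imaginal disc growth factors, which are secreted chitinase-like proteins, 4 were positive and 0 negative (median 0.75), and 6 rose with age in mutants, 2 in set 1 controls and 5 in set 2 controls.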
